A study of Mus musculus with 8 samples.

Results

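The genes of cholesterol synthesis and of its control by sterol regulatory element-binding proteins (SREBPs) were examined in laser-captured mouse endometrium, the inner lining of the uterus. The list held 31 genes, chosen by symbol for their place in the pathway, with earlier results of these data known. All 31 were found among the 52325 gene identifiers of the counts. They comprised 18 synthesis enzymes, 5 genes of SREBP control, 2 thiolases, 1 cholesterol-esterifying enzyme, 3 transport genes and 2 oxysterol receptors. RNA-seq libraries of 4 WT mice were compared with those of 4 *Thra1PV/+* mice, all synchronized in metestrus, the phase of the estrous cycle that follows estrus. *Thra1PV/+* mice carry the PV mutation, a frame-shift that gives a dominant-negative thyroid hormone receptor α1, in 1 allele of *Thra* in every cell, so that the mutation was not restricted to the uterus. The ages of these mice are not given in the labels, which name the tissue only as uterus. Nothing in the labels says that the libraries came from separate mice, although the study counts 4 mice a genotype, so p-values measure the spread between these libraries.

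Cholesterol is made from acetyl-CoA through mevalonate, farnesyl diphosphate, squalene and lanosterol. When sterols in the endoplasmic reticulum are low, SCAP escorts SREBPs to the Golgi, where they are cut and released to activate the synthesis genes, whereas INSIG proteins hold the SCAP-SREBP complex back when sterols are plentiful. SREBP2, encoded by *Srebf2*, mainly drives sterol synthesis, and SREBP1, encoded by *Srebf1*, mainly drives fatty acid synthesis. Thyroid hormone and estrogen both regulate this pathway, and the uterine epithelium is an estrogen target.

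The libraries held between 48791883 and 59819099 estimated counts, and the member with the fewest counts in any library still had 131, so counting error was small for the whole list. *Thra* itself was at 80.1 ± 34.2 CPM (read counts scaled to a common library size, SD, n = 4) in *Thra1PV/+* and 78.0 ± 33.7 CPM in WT endometrium (log2 fold change 0.04, SE 0.39, adjusted p = 0.987 by the quasi-likelihood test of edgeR). The transcript of the PV allele and that of the WT allele are summed in these gene counts. Cell type markers differed between the libraries. The summed level of 10 squamous epithelium markers, all of them detected, was 3075 to 4951 CPM in *Thra1PV/+* and 17.4 to 120 CPM in WT libraries, and 8 of the 10 were called higher. Of the 8 markers of simple uterine epithelium and glands, 7 were tested and 0 were called or had an unadjusted p under 0.05, and the sum of the 8 ran from 6200 to 15439 CPM in *Thra1PV/+* and from 3577 to 20468 CPM in WT libraries. Smooth muscle markers summed to 9424 CPM in WT library 1, to between 336 and 779 CPM in the other WT libraries and to between 101 and 395 CPM in *Thra1PV/+* libraries. All 5 were lower in *Thra1PV/+* at an unadjusted p under 0.05 (edgeR), against 9.77% of all tested genes passing in either direction, and 0 were called. The 6 endometrial stroma markers summed to between 294 and 2818 CPM in *Thra1PV/+* and between 1096 and 3376 CPM in WT libraries. In such bulk samples, fewer cells of a type and less RNA per cell cannot be told apart.

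No gene of the pathway passed the test for a difference between the genotypes. With calls made at fold changes of at least 2 and adjusted p-values of at most 0.1 (edgeR quasi-likelihood test, Benjamini-Hochberg over 18174 tested genes), 0 of the 31 members were called, against 0.99% of all tested genes. At an unadjusted p under 0.05, 0 of 31 members passed, against 9.77% of all tested genes. DESeq2 and limma voom with quality weights each called 0 of 31. The libraries of the genotypes overlapped for each of the 31 members, whereas 6.04% of all tested genes did not overlap. The log2 fold changes (*Thra1PV/+* over WT) ran from -0.46 to 0.51, with 21 above 0 and 10 below, and their median was 0.09 beside -0.05 for all tested genes. Adjusted p-values lay between 0.604 and 0.996.

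These results set bounds that differed from gene to gene. The 95% interval of the fold change lay inside a 2-fold change in either direction for 18 of 31 members, against 48.1% of all tested genes. It did so for all 5 genes of SREBP control, the 3 transport genes and the 2 thiolases, but for only 7 of the 18 synthesis enzymes. For the other 11 enzymes, *Soat1* and *Nr1h3*, a 2-fold difference in at least 1 direction remained within the interval. The plot of the fold changes shows the wide intervals of the enzymes beside the narrow ones of the SREBP control genes.

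**Figure D1:**
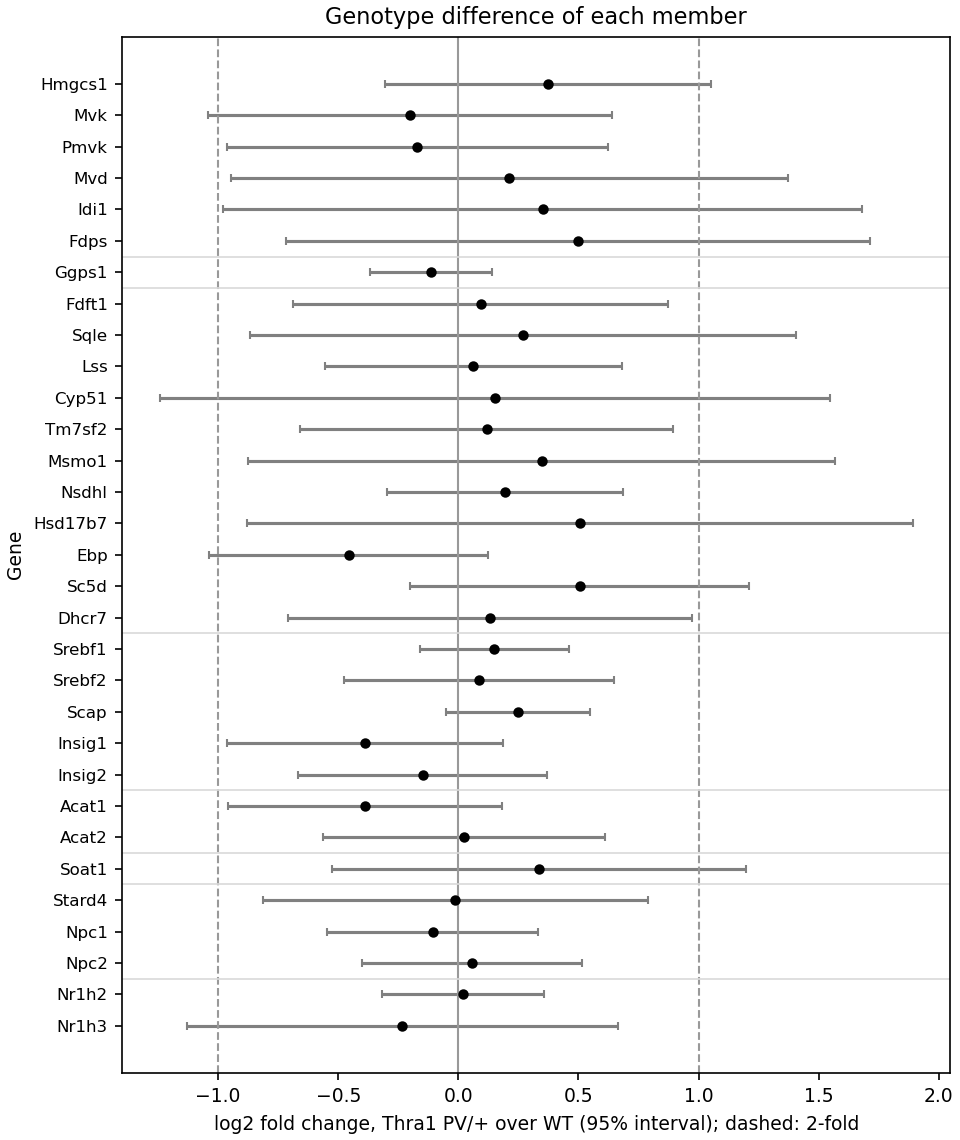
Log2 fold change of each of the 31 members between *Thra1PV/+* and WT endometrium (x axis) with its 95% interval, genes on the y axis ordered by role with grey lines between roles, n = 4 libraries a genotype. Every interval includes 0, and 18 of 31 stay between the dashed lines that mark a 2-fold change.

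The synthesis enzymes varied between libraries of the same genotype, with a median within-genotype SD of log2 CPM of 0.57, beside 0.45 for all tested genes. Among the 4 *Thra1PV/+* libraries, library 3 had the highest level for 17 of 18 enzymes, against 16.2% of all tested genes. Among the 4 WT libraries, library 4 had the highest level for 11 of 18 enzymes, against 16.1% of all tested genes. Both held for 11 of 18 enzymes, or 61.1%, against 3.88% of all tested genes. This pattern was noticed in these values, so the shares are given as a description with no test. The CPM of the 18 enzymes summed to 373, 442, 814 and 442 in *Thra1PV/+* libraries 1 to 4, and to 392, 389, 411 and 673 in WT libraries 1 to 4. In these sums, 1 library of each genotype thus stood above the other 3, and the ranges of those 3 overlapped between genotypes. The median over the 18 enzymes of log2 CPM minus the gene's mean over all libraries gave another order. It was -0.23, -0.19 and -0.05 in *Thra1PV/+* libraries 1, 2 and 4. In WT libraries 1 to 3 it was -0.16, -0.45 and -0.43, so that WT libraries 2 and 3 were lowest.

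**Figure D2:**
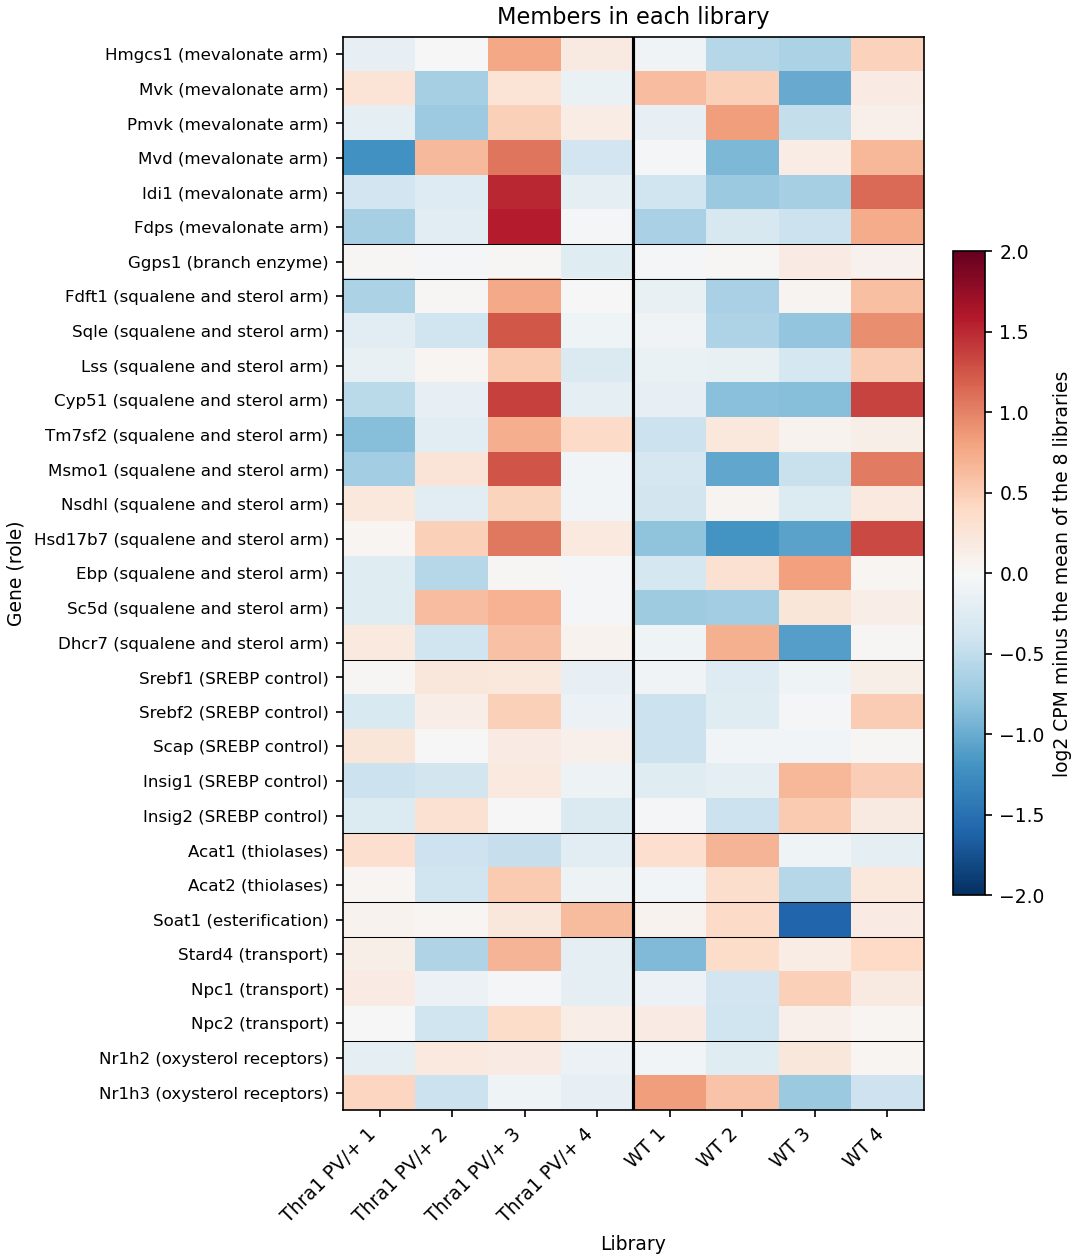
Heat map of log2 CPM minus the mean of the 8 libraries for the 31 members (rows, grouped by role) in each library (columns, *Thra1PV/+* left and WT right of the thick line), red above and blue below the gene's mean. The red cells of the enzymes gather in *Thra1PV/+* library 3, highest of its genotype for 17 of 18, and in WT library 4, highest of its genotype for 11 of 18, while *Ggps1* and *Srebf1* stay pale throughout.

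Gene positions are given on GRCm38. In the mevalonate arm, *Hmgcs1* (ENSMUSG00000093930.2, chr13:119690379-119708260), the synthase that makes HMG-CoA, was measured at 52.0, 59.0, 99.7 and 66.4 CPM in *Thra1PV/+* libraries 1 to 4 and at 55.9, 39.5, 37.8 and 80.6 CPM in WT libraries 1 to 4. The 2 highest values came from *Thra1PV/+* library 3 and WT library 4, and the genotypes overlapped. The mean was 69.3 ± 21.1 against 53.5 ± 19.9 CPM (SD, n = 4), a log2 fold change of 0.37 with an SE of 0.30 and an adjusted p of 0.751 (edgeR). *Idi1* (ENSMUSG00000058258.14, chr13:8885501-8892451), the isopentenyl diphosphate isomerase, was at 14.1, 15.5, 52.5 and 16.3 CPM in *Thra1PV/+* and at 14.0, 11.1, 11.7 and 40.4 CPM in WT libraries. Its 6 lower values lay between 11.1 and 16.3 CPM, those of WT below those of *Thra1PV/+*. *Thra1PV/+* library 3 was 3.38 times the median of the other 3 libraries of its genotype. Its near copy *Idi2* had at most 13 counts in any library. *Fdps*, which makes farnesyl diphosphate, was at 18.3, 24.7, 86.0 and 28.2 CPM in *Thra1PV/+* and at 18.3, 23.0, 21.4 and 48.5 CPM in WT libraries. *Thra1PV/+* library 3 exceeded the median of its genotype's other libraries 3.48 times and WT library 4 exceeded that of its own 2.26 times, and the log2 fold change between genotypes was 0.50 with an SE of 0.53 and a 95% interval from -0.72 to 1.71.

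*Mvd*, the mevalonate diphosphate decarboxylase, was also highest in the same libraries, at 41.0 CPM in *Thra1PV/+* library 3 and 30.7 CPM in WT library 4, but it was nearly as high in *Thra1PV/+* library 2, at 30.4 CPM. The 2 kinases that act before it had other profiles. *Mvk*, mevalonate kinase, was at 14.2, 7.47, 14.3 and 10.8 CPM in *Thra1PV/+* and at 18.2, 16.5, 5.89 and 13.2 CPM in WT libraries, so that its 2 highest values were WT libraries 1 and 2. *Pmvk*, phosphomevalonate kinase, was highest in WT library 2, at 27.2 CPM, and reached 16.3 CPM in WT library 4. *Ggps1*, which leads away from cholesterol to geranylgeranyl diphosphate, varied least of all members. Its highest library was 1.33 times its lowest, it lay at 43.0 ± 3.68 CPM in *Thra1PV/+* and 46.5 ± 2.56 CPM in WT endometrium, and its log2 fold change of -0.11 had a 95% interval from -0.37 to 0.14.

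**Figure D3:**
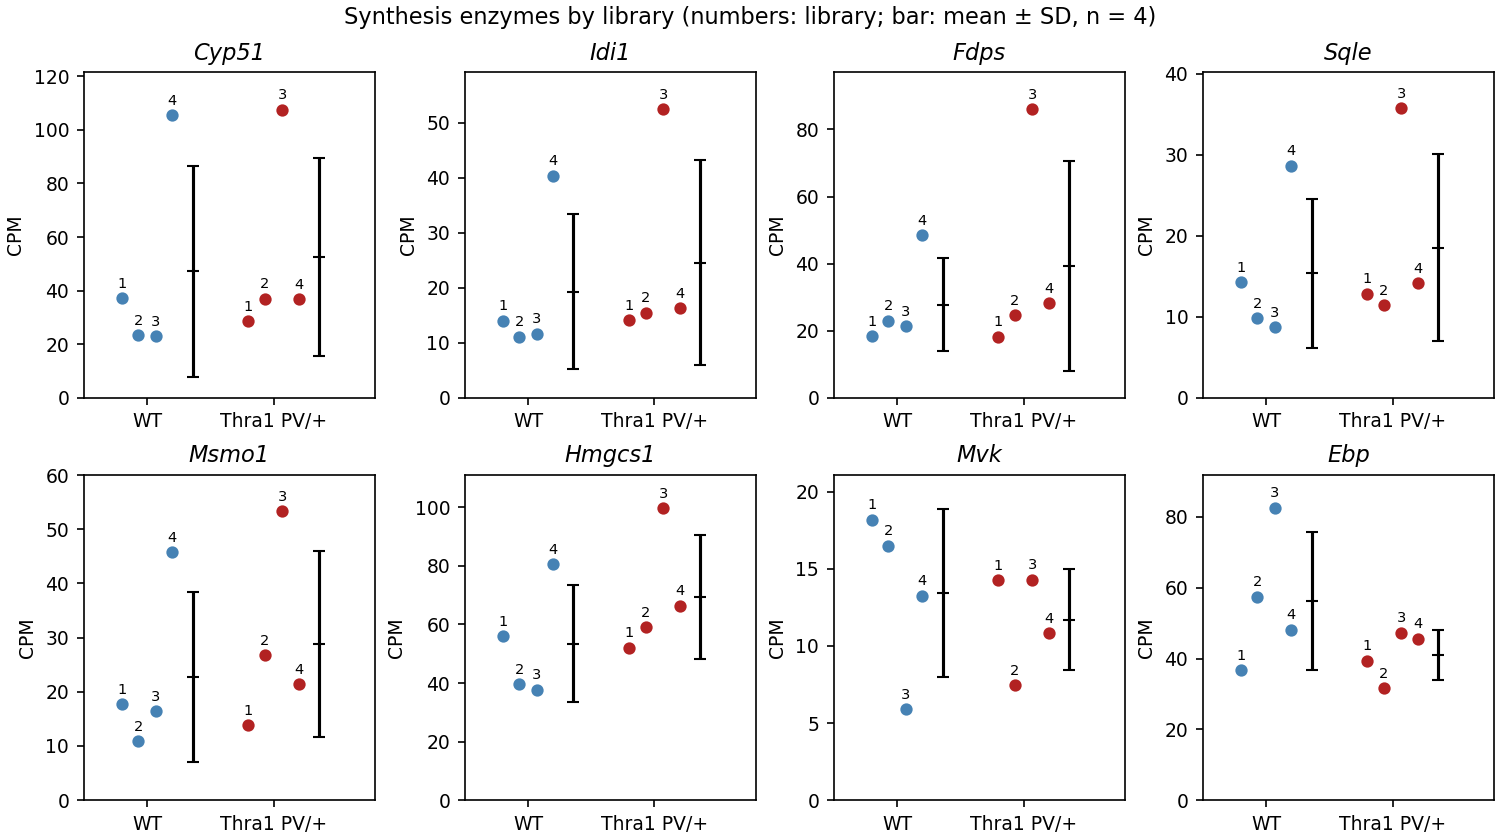
CPM (y axes, from 0) of 8 synthesis enzymes in each WT (blue) and *Thra1PV/+* (red) library, with the library number above each point and bars for the mean ± SD (n = 4). In *Cyp51*, *Idi1*, *Fdps*, *Sqle*, *Msmo1* and *Hmgcs1*, *Thra1PV/+* library 3 and WT library 4 sit above the other 3 libraries of their genotype, which they do not both do in *Mvk* and *Ebp*.

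In the squalene and sterol arm, *Cyp51* (ENSMUSG00000001467.5, chr5:4081145-4104746), the lanosterol demethylase, was at 28.6, 37.0, 107 and 36.8 CPM in *Thra1PV/+* libraries 1 to 4 and at 37.2, 23.3, 22.9 and 105 CPM in WT libraries 1 to 4. The single high library of each genotype reached nearly the same level, and the means, 52.5 ± 36.9 and 47.2 ± 39.3 CPM, differed by far less than their SD (log2 fold change 0.15, SE 0.61, adjusted p = 0.965 by edgeR). *Sqle*, the squalene epoxidase, was at 12.9, 11.4, 35.8 and 14.2 CPM in *Thra1PV/+* and at 14.3, 9.86, 8.73 and 28.7 CPM in WT libraries. Its 2 high libraries were 2.78 and 2.91 times the median of the others of their genotype, and its log2 fold change was 0.27 with an SE of 0.50. *Msmo1*, a sterol C4-methyl oxidase, was at 53.4 CPM in *Thra1PV/+* library 3 and 45.7 CPM in WT library 4, above 13.8 to 26.8 CPM in the other libraries of *Thra1PV/+* and 10.8 to 17.7 CPM in those of WT. *Fdft1*, the squalene synthase, and *Lss*, the lanosterol synthase, had the same 2 highest libraries with smaller ratios, 1.68 and 1.68 for *Fdft1* and 1.60 and 1.57 for *Lss*.

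*Hsd17b7* (ENSMUSG00000026675.12, chr1:169949535-169969241), a 3-ketosteroid reductase of sterol synthesis that can also reduce estrone to estradiol, had the largest positive log2 fold change of the members, 0.51 with an SE of 0.60. It was at 5.67, 7.67, 11.4 and 6.27 CPM in *Thra1PV/+* and at 3.15, 2.40, 2.61 and 13.7 CPM in WT libraries. The 4 *Thra1PV/+* values all lay above WT libraries 1 to 3 and all lay below WT library 4, which was 5.24 times the median of the other 3. With 1 library left out, the log2 fold change ran from 0.26 (without *Thra1PV/+* library 3) to 1.51 (without WT library 4), and the adjusted p in the latter fit was 0.191 (edgeR). *Sc5d*, the lathosterol oxidase, was at 30.96, 55.9, 59.5 and 35.6 CPM in *Thra1PV/+* and at 22.4, 22.5, 43.1 and 40.3 CPM in WT libraries. WT libraries 1 and 2 lay below all *Thra1PV/+* libraries and WT libraries 3 and 4 lay among them, with a log2 fold change of 0.50, an SE of 0.31 and an adjusted p of 0.658 (edgeR).

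*Ebp* (ENSMUSG00000031168.14, chrX:8185329-8193512), the sterol isomerase that acts before *Sc5d*, had the most negative log2 fold change of the members. It was at 39.4, 31.6, 47.3 and 45.6 CPM in *Thra1PV/+* and at 36.6, 57.5, 82.6 and 48.1 CPM in WT libraries. WT libraries 2, 3 and 4 lay above all *Thra1PV/+* libraries and WT library 1 lay among them (log2 fold change -0.46, SE 0.25, adjusted p = 0.624 by edgeR). *Dhcr7*, which reduces 7-dehydrocholesterol to cholesterol, was at 22.9, 15.1, 30.0 and 20.98 CPM in *Thra1PV/+* and at 18.9, 32.8, 9.31 and 20.2 CPM in WT libraries. WT library 2 held its highest value and WT library 3 its lowest, with a log2 fold change of 0.13 and an SE of 0.37. Of the remaining enzymes, *Nsdhl*, a sterol C4-decarboxylase, ran from 10.3 to 18.0 CPM, and *Tm7sf2*, a sterol C14-reductase, from 5.88 to 17.5 CPM.

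The median log2 fold change of the 18 enzymes was 0.17, with 14 above 0 and 4 below, and its sign changed when 1 library was left out. Without *Thra1PV/+* library 3, the median was -0.17 and 14 of the 31 members changed sign. Without WT library 4, the median was 0.41. Each of these fits kept the high library of the other genotype, and no fit left out both. At most 2 of 31 members passed an unadjusted p of 0.05 when any 1 library was left out, against 10.7% of all tested genes in that fit (without WT library 4), and 0 were called.

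Of the 5 genes that control SREBPs, 1 was highest of its genotype in both *Thra1PV/+* library 3 and WT library 4. *Srebf2* was at 59.2, 79.8, 102 and 67.3 CPM in *Thra1PV/+* and at 53.9, 61.6, 71.3 and 104 CPM in WT libraries. It was the gene highest in those libraries, at 1.51 and 1.68 times the median of the other libraries of the genotype, and its log2 fold change between genotypes was 0.09 with a 95% interval from -0.48 to 0.65. *Srebf1*, whose counts do not separate its isoforms, was at 63.5, 73.1, 71.8 and 55.4 CPM in *Thra1PV/+* and at 59.6, 52.2, 58.5 and 67.5 CPM in WT libraries. Its highest library was only 1.40 times its lowest, and its log2 fold change was 0.15 with an SE of 0.14.

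*Scap* (ENSMUSG00000032485.14, chr9:110333288-110384950), the escort of SREBPs, had the smallest p of the 31 members. It was at 80.2, 68.1, 75.8 and 72.7 CPM in *Thra1PV/+* and at 50.2, 65.0, 65.5 and 69.1 CPM in WT libraries. Only WT library 4 and *Thra1PV/+* library 2 crossed, and the mean difference was a log2 fold change of 0.25 with a 95% interval from -0.05 to 0.55 (adjusted p = 0.604 by edgeR). A two-sided exact permutation test of its log2 CPM gave p = 0.0571, where 0.0286 is the smallest p that 4 against 4 libraries allow. *Insig1*, which retains SCAP and is itself an SREBP target, was at 21.4, 22.1, 32.8 and 26.7 CPM in *Thra1PV/+* and at 24.3, 24.9, 45.3 and 40.3 CPM in WT libraries. WT libraries 3 and 4 lay above all *Thra1PV/+* libraries and WT libraries 1 and 2 lay among them (log2 fold change -0.39, SE 0.25, adjusted p = 0.675 by edgeR). Its levels in *Thra1PV/+* library 3 and WT library 4 were 1.48 and 1.62 times the median of the other libraries of the genotype. *Insig2*, the second INSIG gene, ranged from 32.1 to 48.0 CPM in *Thra1PV/+* and from 28.9 to 56.3 CPM in WT libraries.

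Promoter sequence of the members was also examined. RefSeq windows on GRCm38.p6, of 300 bases (250 before to 50 after the start), were at hand for 25 of the 31 members and 15 of the 18 enzymes. The enzymes without a window were *Fdps*, *Fdft1* and *Sqle*. On either strand, the CCAAT box, which NF-Y binds beside SREBP, was present in 15 of 15 enzymes and in 21 of 25 members (84.0%), against 41.1% of all 27025 genes with a window. The GC box GGGCGG, which Sp1 binds, was present in 13 of 15 enzymes and 21 of 25 members, against 38.2% of genes. The sterol regulatory element core TCACNCCAC was found only for *Hmgcs1*, against 1.44% of genes, and the direct repeat of AGGTCA with 4 bases between the copies, of the kind bound by thyroid hormone receptors and LXRs, was found for 0 of 25 members, against 0.0148% of genes. A gene with several windows was counted once if any of them matched. The 27025 genes were not limited to those expressed in these libraries, as all members were, so the shares are not matched for expression. Such matches describe the sequence and were not tested as sites, and a window without a match says only that these letters are absent from it.

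The 200 bases before the start are shown, 5′ to 3′ on the strand of the gene, for enzymes highest of the genotype in *Thra1PV/+* library 3. Of these, 2 were also highest of the genotype in WT library 4, *Hmgcs1* (chr13:119690151-119690350, plus strand) and *Mvd* (chr8:122443423-122443622, minus strand). The 2 that were not were *Mvk* (chr5:114444069-114444268, plus strand) and *Ebp* (chrX:8193513-8193712, minus strand). Capitals mark CCAAT, its reverse complement ATTGG, and the sterol regulatory element core, and no marked stretch overlaps another.
Hmgcs1: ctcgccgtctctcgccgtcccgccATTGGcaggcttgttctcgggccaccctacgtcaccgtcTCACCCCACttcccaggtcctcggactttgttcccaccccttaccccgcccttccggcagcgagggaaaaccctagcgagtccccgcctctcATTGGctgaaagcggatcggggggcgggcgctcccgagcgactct
Mvd: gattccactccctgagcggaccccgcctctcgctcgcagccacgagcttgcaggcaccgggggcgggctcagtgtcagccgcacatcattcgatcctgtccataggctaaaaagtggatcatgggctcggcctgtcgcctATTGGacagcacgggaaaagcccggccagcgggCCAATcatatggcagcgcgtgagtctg
Mvk: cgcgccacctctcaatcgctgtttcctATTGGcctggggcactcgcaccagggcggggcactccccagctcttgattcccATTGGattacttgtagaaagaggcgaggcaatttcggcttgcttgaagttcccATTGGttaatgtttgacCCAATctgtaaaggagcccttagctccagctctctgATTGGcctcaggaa
Ebp: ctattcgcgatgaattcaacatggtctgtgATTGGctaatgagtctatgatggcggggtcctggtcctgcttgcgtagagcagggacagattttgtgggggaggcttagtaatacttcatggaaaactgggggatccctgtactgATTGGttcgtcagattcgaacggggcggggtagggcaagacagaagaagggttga
The single TCACNCCAC match of *Hmgcs1* lies from base -137 to base -129 before the start, between the 2 CCAAT matches of the 200 bases shown. In these stretches *Mvd* and *Ebp* have 2 CCAAT matches each and *Mvk* has 5. This box was thus present both in the enzymes shown that were highest in WT library 4 and in those that were not.

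The remaining members handle acetyl-CoA, store or move cholesterol, or sense its oxidized forms. *Acat1*, the mitochondrial acetoacetyl-CoA thiolase, was at 65.9, 39.4, 38.3 and 44.8 CPM in *Thra1PV/+* and at 66.2, 84.5, 49.5 and 46.6 CPM in WT libraries. *Thra1PV/+* libraries 2, 3 and 4 lay below all WT libraries, and *Thra1PV/+* library 1 lay beside WT library 1 (log2 fold change -0.39, SE 0.25, adjusted p = 0.672 by edgeR). Unlike the enzymes, it was lowest of its genotype in *Thra1PV/+* library 3 and in WT library 4. *Acat2*, the cytosolic thiolase that feeds the mevalonate arm, was highest of its genotype in *Thra1PV/+* library 3, at 36.1 CPM, and in WT library 2, at 32.3 CPM, and its near copy *Acat3* had at most 17.1 counts in any library.

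*Soat1*, which esterifies cholesterol for storage, was at 89.2, 87.2, 99.2 and 132 CPM in *Thra1PV/+* and at 89.1, 111, 28.2 and 95.2 CPM in WT libraries. WT library 3 stood below the other 7, and the genotypes overlapped. *Stard4*, a cytosolic sterol carrier and SREBP2 target, was at 21.02, 12.7, 31.02 and 17.0 CPM in *Thra1PV/+* and at 10.5, 25.0, 21.5 and 25.5 CPM in WT libraries, and its log2 fold change was -0.01 with a 95% interval from -0.81 to 0.79. *Npc1* and *Npc2*, which export cholesterol from lysosomes, ran from 41.7 to 75.7 CPM and from 257 to 439 CPM over the 8 libraries, and both intervals lay inside a 2-fold change. *Nr1h3*, the LXRα gene, was at 9.13, 5.03, 6.38 and 6.01 CPM in *Thra1PV/+* and at 12.0, 10.1, 4.02 and 5.09 CPM in WT libraries, with its highest values in library 1 of each genotype and in WT library 2. *Nr1h2*, the LXRβ gene, stayed between 76.0 and 104 CPM.

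Levels between genes were compared per length, in the deposited quantile-normalized TPM. The median of the 8 libraries was highest for *Npc2*, at 141 TPM, followed by *Nr1h2* at 75.0 and *Ebp* at 43.0 TPM, whose range of 28.8 to 70.9 TPM reached that of *Nr1h2*, from 65.5 to 91.4 TPM. *Soat1*, *Srebf1*, *Insig2*, *Hmgcs1* and *Fdps* came next with medians between 23.9 and 27.5 TPM, and their ranges overlapped. The lowest were *Lss*, at 2.04 TPM, and *Hsd17b7*, at 1.89 TPM, and their ranges also overlapped. Among the oxysterol receptors, *Nr1h2* at 65.5 to 91.4 TPM stood above *Nr1h3* at 3.72 to 8.42 TPM in all 8 libraries.

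**Figure D4:**
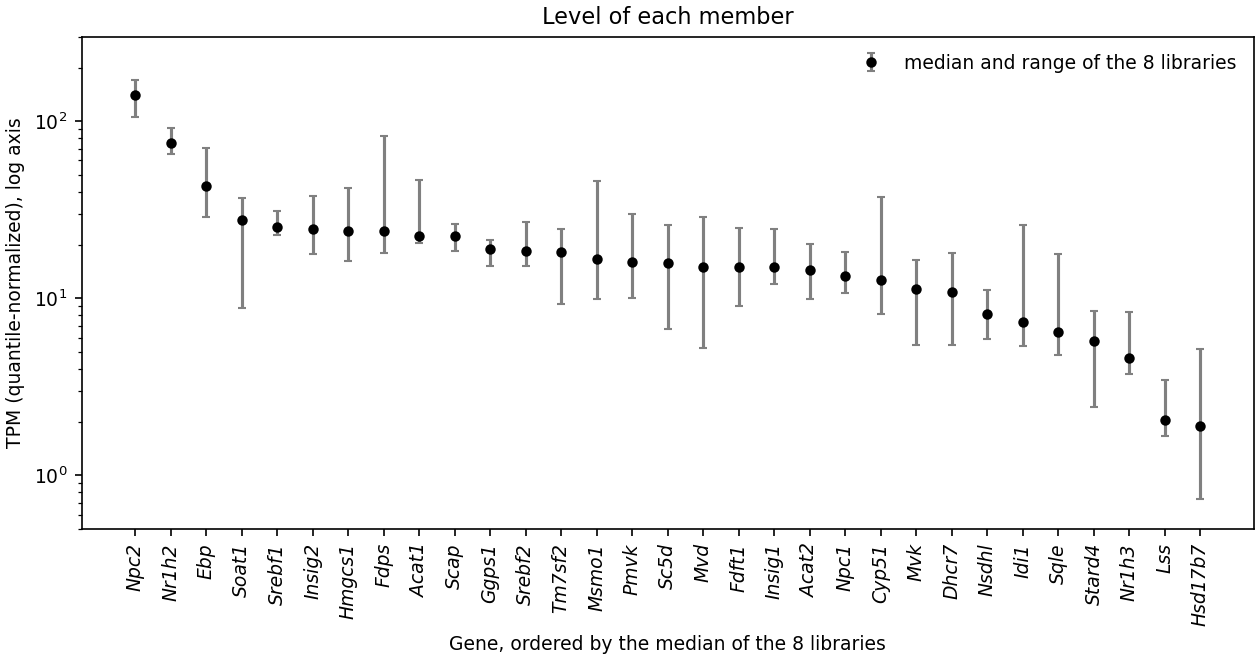
Deposited quantile-normalized TPM (y axis, log scale) of the 31 members, ordered by their median over the 8 libraries, with bars from the lowest to the highest library. *Npc2* leads at 141 TPM and *Hsd17b7* is last at 1.89 TPM, with most members' ranges overlapping those of their neighbours.

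A second list, of 25 further genes of sterol synthesis, uptake, export and SREBP processing, was read the same way. Of these, 24 were tested, 0 were called and their median log2 fold change was -0.10. At an unadjusted p under 0.05, 1 was higher and 1 was lower, or 2 of 24 (8.33%) against 9.77% of all tested genes, so these counts do not set the list apart. *Abcg1*, a sterol exporter and LXR target, was at 29.9 ± 7.79 CPM in *Thra1PV/+* and 17.8 ± 5.78 CPM in WT endometrium (SD, n = 4, log2 fold change 0.75, SE 0.27, adjusted p = 0.402 by edgeR). *Scarb1*, the HDL receptor, was at 24.4 ± 7.92 and 36.5 ± 4.75 CPM (log2 fold change -0.58, SE 0.24, adjusted p = 0.487 by edgeR). Both *Thra1PV/+* library 3 and WT library 4 were highest of their genotype for 2 of these 24 genes, or 8.33%.

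Cell markers were set beside the pattern of the enzymes. The 8 simple epithelium and gland markers were each above 0 in at least 1 library, although *Spink1* reached at most 0.957 CPM and was not tested. The 8 summed to 6200, 13116, 15439 and 11535 CPM in *Thra1PV/+* libraries 1 to 4 and to 4580, 3577, 20468 and 16901 CPM in WT libraries 1 to 4. Most of this sum was *Ltf*, which encodes lactoferrin. The other 7 markers summed to 1666, 3317, 4175 and 3053 CPM in *Thra1PV/+* and to 1727, 2287, 4447 and 4680 CPM in WT libraries. *Thra1PV/+* library 3 was thus the highest of its genotype with and without *Ltf*, and WT library 4 was the highest of its genotype only without it. WT library 3, whose enzymes summed to 411 CPM, was close to WT library 4 for these 7 markers. The 4 neutrophil markers summed to 110 CPM in WT library 4 and 5.15 to 27.3 CPM in the other WT libraries, and to 267 CPM in *Thra1PV/+* library 3 and 669 CPM in *Thra1PV/+* library 2. The 5 markers of steroid-producing ovarian cells summed to at most 1.70 CPM in any library, with 2 of them at 0 throughout. The adipocyte markers, of which 1 of 6 was at 0 in every library, summed to 37.3 CPM in *Thra1PV/+* library 3 and 49.0 CPM in WT library 4, most of it *Lpl*, which other cells also express. Without *Lpl*, the sums were 3.49 CPM in *Thra1PV/+* library 3 against 0.467 to 1.96 CPM in the rest of its genotype, and 1.15 CPM in WT library 4 against 1.48 to 28.2 CPM in the rest of its genotype. *Adipoq*, the adiponectin gene, was at 1.57 CPM in *Thra1PV/+* library 3 and at most 0.0722 CPM in the other 7 libraries. *Plin1* and *Cidec* were also highest in that library, but *Plin4* and *Lpl* were not. *Plin4* was at 0.736 CPM there and 28.0 CPM in WT library 1, and *Lpl* at 33.8 and 107 CPM. Squamous markers summed to 4951 CPM in *Thra1PV/+* library 3, close to 4902 CPM in library 2, and to 57.7 CPM in WT library 4, below 120 CPM in WT library 3. Without *Krt5*, the squamous sum was 3021 CPM in *Thra1PV/+* library 3, below 3228 CPM in library 2. Of the 10 squamous markers taken singly, 2 were highest of the genotype in *Thra1PV/+* library 3 and 1 in WT library 4. Macrophage markers summed to 791 CPM in WT library 4, the highest of its genotype, but to 861 CPM in *Thra1PV/+* library 3, below 1102 CPM in library 1. Without *Cd14*, the macrophage sum was 470 CPM in WT library 4, below 549 CPM in WT library 1. Of the 6 macrophage markers taken singly, 0 were highest of the genotype in WT library 4 and 1 in *Thra1PV/+* library 3. Stroma, smooth muscle, oviduct ciliated and red blood cell markers were highest of the genotype in neither library. The part of cell markers in the differences between libraries was not tested.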

How the data were processed

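Frozen sections of uterus were the source of the laser-captured endometrium. The authors made stranded mRNA libraries for paired-end sequencing, used Trimmomatic for read trimming, and obtained the estimated counts from salmon for mm10 (versions not given in the sources used here). They deposited these estimated counts, which were not normalized, together with a table of TPM whose sorted values differed between libraries by at most 0.291 TPM, the form that quantile normalization gives. In the TPM table, 1 further column was not used.

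The deposited estimated counts were rounded to whole numbers and tested with edgeR 4.0.16 in R 4.3.3. Of 52325 genes, 18174 passed filterByExpr at a minimum count of 10 and a minimum total of 15. Library sizes were scaled by TMM. Genotype was the only term of the quasi-likelihood test, and p-values were adjusted over all tested genes by the Benjamini-Hochberg method. Levels are CPM on TMM-normalized library sizes. All 31 members passed the filter, and identifiers without a symbol held at most 0.00897% of a library's counts. Members were positioned in GENCODE M21 (GRCm38), in which 27 of 31 have the same identifier version.

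The members and lists were chosen with earlier results of these data known. Values in every library are given for members called, at an unadjusted p under 0.05 or with no overlap, for the 3 largest fold changes in each direction, and for *Hmgcs1*, *Sqle*, *Dhcr7*, *Srebf1*, *Srebf2*, *Insig1*, *Stard4* and *Nr1h3*. *Idi1*, *Cyp51*, *Mvk*, *Scap*, *Soat1* and the 4 promoters shown were chosen after their values were seen. The alternatives were DESeq2 1.42.0, limma 3.58.1, other normalizations, filters, dispersion and thresholds, a replicate block, and each library left out. In limma, voom was run with quality weights, which weight each library. The log2 TPM fits of limma used pseudocounts of 1 and 0.1 for genes of at least 1 TPM in 4 libraries. The tests were first run on simulated data.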

Additional observations from a re-analysis of the deposited data

Results flagged for a closer look

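Each member was examined in each genotype, 62 groups of 4 libraries in all, for a highest or lowest library whose gap to the nearest of the others in log2 CPM, divided by the range of the group on the same scale, exceeded the critical value of Dixon at the 95% level. Chance alone would give about 3.1 such groups, and 3 were found. For *Idi1*, the ratio was 0.89 for *Thra1PV/+* library 3, which was the highest at a log2 CPM of 5.71 against 3.82 to 4.03. For *Hsd17b7*, the ratio was 0.845 for WT library 4, which was the highest at a log2 CPM of 3.78 against 1.29 to 1.67. For *Soat1*, the ratio was 0.841 for WT library 3, which was the lowest at a log2 CPM of 4.82 against 6.48 to 6.79.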

How the results depend on the processing

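The number of members called was 0 under each alternative, including both other thresholds, while the number of all genes called ran from 81 to 791 (DESeq2) around 180. The count at an unadjusted p under 0.05 was 1 with library size alone as the normalization (*Sc5d*), against 9.11% of all tested genes there, and 0 to 2 with 1 library left out, against 6.50% to 12.0% of all tested genes. The count of members without overlap between genotypes was 1 with the size factors of DESeq2, 1 with upper-quartile normalization and 1 with every gene of at least 1 count kept (*Scap* each time), against 4.41% to 6.07% of all tested genes, and 0 to 3 with 1 library left out, the 3 being *Hsd17b7*, *Idi1* and *Scap* without WT library 4, against 10.3% of all tested genes in that fit. The median log2 fold change of the enzymes ran from 0.17 to 0.32 with all libraries kept and from -0.17 to 0.41 with 1 left out.

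Same-numbered libraries did not deviate together (correlations across genes of 0.27, -0.44, 0.34 and -0.16 for numbers 1 to 4), and not every library correlated best with its own number, so the numbers were not taken as pairs. With replicate number as a block, 82 genes and 0 members were called, 0 members passed an unadjusted p of 0.05, and the median of the enzymes was 0.20.

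The sign of a log2 fold change differed from that reported in 13 of 341 fits of single members that kept all libraries, and the cause was not tested. With voom it was 0.00284 for *Pmvk* and 0.0571 for *Stard4*. With log2 TPM it was -0.00638 for *Mvd* (pseudocount 0.1), -0.0841 and -0.0936 for *Tm7sf2* and 0.0722 and 0.0747 for *Insig2* (pseudocounts 1 and 0.1). *Stard4* was at 0.0142 with DESeq2, 0.0120 with its size factors, 0.0260 with the upper quartile, 0.0596 with library size and 0.0102 with every gene of at least 1 count, and *Npc1* at 0.00131 with library size. With 1 library left out, the sign differed in 35 of 248 fits, 14 of them without *Thra1PV/+* library 3. The ranges were -0.44 to 0.0217 for *Mvk*, -0.38 to 0.18 for *Pmvk*, -0.19 to 0.54 for *Mvd*, -0.34 to 1.004 for *Idi1*, -0.23 to 0.91 for *Fdps*, -0.20 to 0.35 for *Fdft1*, -0.27 to 0.76 for *Sqle*, -0.13 to 0.28 for *Lss*, -0.47 to 0.92 for *Cyp51*, -0.15 to 0.38 for *Tm7sf2*, -0.14 to 0.94 for *Msmo1*, -0.0904 to 0.49 for *Dhcr7*, -0.0792 to 0.31 for *Srebf2*, -0.28 to 0.0445 for *Insig2*, -0.17 to 0.18 for *Acat2*, -0.29 to 0.16 for *Stard4*, -0.20 to 0.0729 for *Npc1*, -0.0668 to 0.18 for *Npc2*, -0.0441 to 0.13 for *Nr1h2* and -0.44 to 0.0992 for *Nr1h3*. The other 11 members kept 1 direction in all alternatives run, but their sizes moved with 1 library left out, over 0.14 to 0.64 for *Hmgcs1*, -0.14 to -0.0565 for *Ggps1*, 0.0641 to 0.30 for *Nsdhl*, 0.26 to 1.51 for *Hsd17b7*, -0.57 to -0.19 for *Ebp*, 0.35 to 0.70 for *Sc5d*, 0.0973 to 0.22 for *Srebf1*, 0.20 to 0.30 for *Scap*, -0.53 to -0.19 for *Insig1*, -0.55 to -0.17 for *Acat1* and 0.0700 to 0.55 for *Soat1*. With 4 libraries a genotype, spread between libraries and not depth set the width of the intervals.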
